A study of Mus musculus with 4 samples.

Results

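The interferon regulatory factor genes Irf1, Irf2, Irf3, Irf4, Irf5, Irf7, Irf8 and Irf9 were followed through the cell lineages of fibrotic mouse lung. They were chosen by name and are 8 of the 32286 genes in the count tables. The lungs came from WT mice and from littermates lacking β-III tubulin (Tubb3-/- mice), 2 mice per genotype, 14 days after intratracheal bleomycin at 0.8 U/kg, a drug that injures the lung and leaves it fibrotic. Tubb3-/- mice were homozygous for a Cre sequence placed at the translation start of Tubb3, so that they carried Cre besides lacking Tubb3. The study used mice of both sexes, 8 to 11 weeks old. All mice received bleomycin, and no untreated lung was analysed here. Cells of all 4 mice, tagged by mouse, were combined into 1 whole-cell pool and 1 pool enriched for mural cells, the pericytes and smooth muscle cells that wrap blood vessels, and each pool gave 1 gene expression library. Sorting by tag afterwards gave 8 sets of cells, 1 for each mouse and pool. Enrichment depleted cells bearing CD31, CD45, EpCAM and TER-119, and sorted MCAM+ PDGFRα- cells were mixed 1:1 with sorted MCAM- cells.

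Interferons are cytokines that signal through receptor-bound JAK kinases to STAT transcription factors, and interferon regulatory factors act at both ends of this route. IRF3 and IRF7 are activated downstream of sensors of foreign nucleic acid and switch on interferon genes, whereas IRF9 is the DNA-binding part of the complex ISGF3, which binds the interferon-stimulated response element (ISRE). IRF1 is induced by interferon-γ through a gamma-activated sequence (GAS) and drives antigen presentation genes, and IRF2 can compete with it for the same sites. IRF4, IRF5 and IRF8 are best known from immune cells, IRF4 for B cell and T cell differentiation, IRF5 for inflammatory cytokine genes and IRF8 for the development of dendritic cells and monocytes.

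Cells were assigned to a lineage by unique molecular identifiers (UMIs, each standing for 1 captured RNA molecule) of a gate gene, which was Ptprc for immune, Cdh5 for endothelial, Epcam for epithelial, Higd1b for pericyte, Myh11 (at least 3 UMIs) for smooth muscle and Pdgfra for fibroblast cells. Of 30083 cells kept, 21008 (69.8%) met 1 gate, 7328 (24.4%) met several and were dropped, and 1747 (5.81%) met none. The lineages held 5155 immune, 2943 endothelial, 582 epithelial, 170 pericyte, 4274 smooth muscle and 7884 fibroblast cells. Pericytes were the thinnest lineage, with 33 to 63 cells per mouse, and 413 of the 986 cells with Higd1b were dropped because they met the Myh11 gate as well. Lineage and pool went together, since 84.7% of pericytes and 92.2% of smooth muscle cells, but 3.88% of immune cells, came from the enriched pool. Sets of 4 marker genes that were not gates were each highest in the lineage they mark. Separation was least complete among mesenchymal cells, where fibroblast markers (Col1a1, Dcn, Lum and Col3a1) stood at 22.4% of their fibroblast level in pericytes and at 32.0% in smooth muscle cells. Tubb3, the deleted gene, lay at 0.262 to 0.789 CPM (UMIs scaled to a common total) in the 4 sets of Tubb3-/- cells and at 0.868 to 5.49 CPM in the 4 sets of WT cells. Median depth was 9186 to 13321 UMIs per cell in WT and 11484.5 to 16299 in Tubb3-/- sets. No barcode was shared between mice of a pool, and 59 occurred in both pools.

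The regulatory sequence in front of the genes is shown first, because Irf1 is known as a gene that interferon-γ induces directly. Promoter windows from RefSeq (GRCm38.p6, 250 bases before to 50 bases after an annotated start) were found for all 8 genes, 11 windows in all. GAS was searched as TTCNNNGAA, which reads the same on both strands, and ISRE as GAAA, any 2 bases and GAAA, on both strands. GAS letters were in 3 of the 11 windows, those of Irf1, Irf2 and Irf8, and ISRE letters in 1, that of Irf2. Of 32851 windows over all genes, 8.3% held GAS letters, 3.44% ISRE letters and 11.3% either. The 3 windows with a match are printed 5′ to 3′ on the plus strand, with the matched letters in capitals.
Irf1, chr11:53769764-53770063: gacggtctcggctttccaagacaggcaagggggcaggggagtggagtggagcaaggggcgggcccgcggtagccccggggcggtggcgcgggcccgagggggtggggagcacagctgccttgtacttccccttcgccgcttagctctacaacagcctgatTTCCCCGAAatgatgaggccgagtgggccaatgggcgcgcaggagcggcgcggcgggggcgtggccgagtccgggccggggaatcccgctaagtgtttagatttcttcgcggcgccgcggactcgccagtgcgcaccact
Irf2, chr8:46739495-46739794: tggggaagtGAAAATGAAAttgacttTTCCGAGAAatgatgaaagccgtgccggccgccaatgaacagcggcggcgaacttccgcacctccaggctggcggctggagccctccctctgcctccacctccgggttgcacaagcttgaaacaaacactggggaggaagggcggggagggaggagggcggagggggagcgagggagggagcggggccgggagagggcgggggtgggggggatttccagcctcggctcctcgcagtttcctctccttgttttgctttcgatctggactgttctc
Irf8, chr8:120736108-120736407: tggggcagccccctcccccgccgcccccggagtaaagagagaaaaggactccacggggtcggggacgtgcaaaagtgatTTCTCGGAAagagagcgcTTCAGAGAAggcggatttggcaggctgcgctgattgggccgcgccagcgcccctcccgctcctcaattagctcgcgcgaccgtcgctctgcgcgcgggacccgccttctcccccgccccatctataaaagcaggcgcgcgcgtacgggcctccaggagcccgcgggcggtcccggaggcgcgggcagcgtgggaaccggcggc

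In Irf1 the match TTCCCCGAA began 90 bases before the start. Irf2 had TTCCGAGAA 224 bases and GAAAATGAAA 241 bases before its start, and Irf8 had TTCTCGGAA and TTCAGAGAA at 171 and 153 bases. These are matches of letters in the reference, not measured binding. On mm10, Irf1 spans chr11:53770014-53778374, Irf2 chr8:46739732-46847458 and Irf8 chr8:120736358-120756694, all on the plus strand. Irf8 overlaps the protein-coding model Gm20388 and Irf9 (chr14:55603571-55610030, plus strand) overlaps Rnf31 on their own strand, which leaves some doubt in both counts whether or not counting used strand. On the opposite strand Irf1 overlaps the protein-coding model Gm17334, Irf2 overlaps the antisense genes Gm45479 and Gm31172, and Irf3, Irf5 and Irf7 overlap Bcl2l12, Tnpo3 and Phrf1. Whether counting used strand is not given in the sources used here, so that counts of these 5 genes are uncertain too. Irf4 overlaps no other gene of the annotation.

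UMIs were summed per mouse and lineage into 24 sums and expressed as CPM, scaled by the trimmed mean of M-values (TMM). Irf4, Irf5, Irf7 and Irf8 were highest in immune cells, Irf1, Irf2 and Irf9 in endothelial cells, and Irf3 was nearly even. Values in a sentence are given for WT mouse 1, WT mouse 2, Tubb3-/- mouse 1 and Tubb3-/- mouse 2, in this order. Levels of different genes are not compared with each other.

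**Figure D1:**
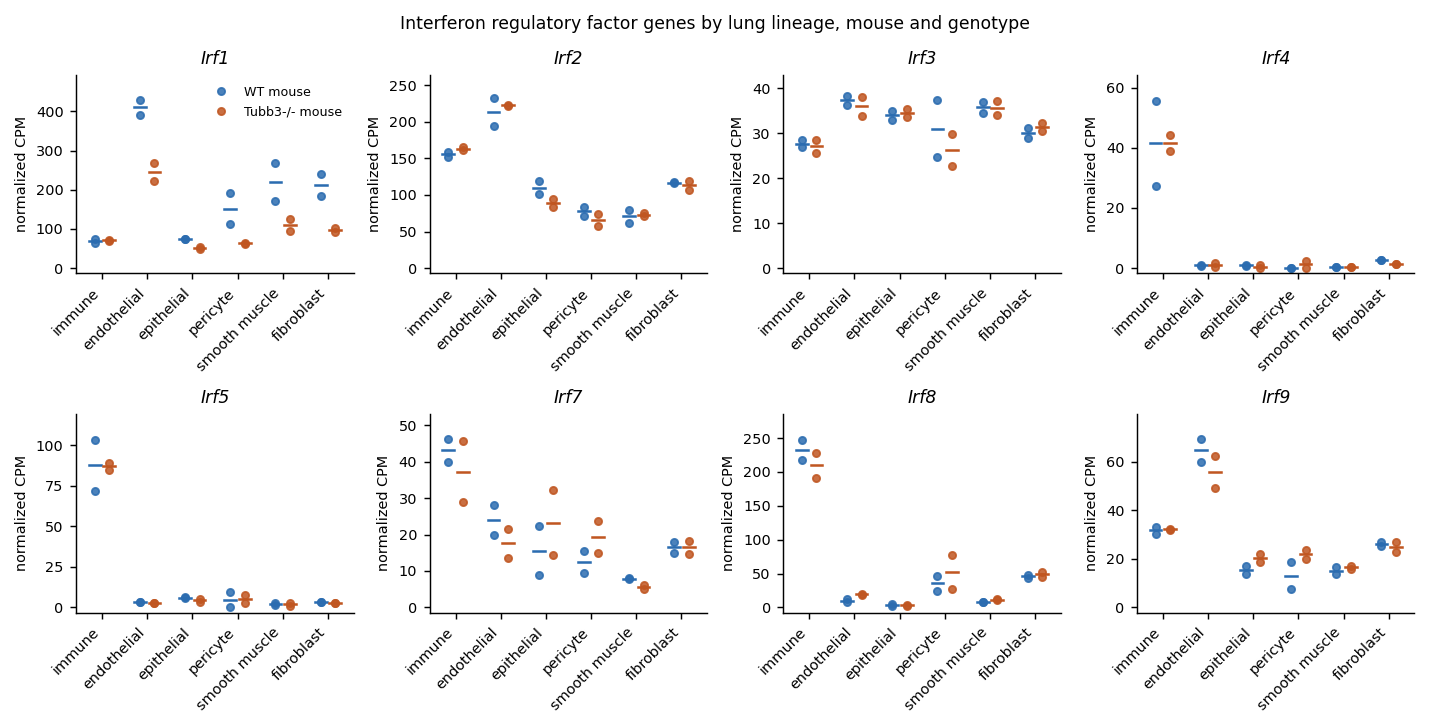
Normalized CPM (y axis, linear, a separate scale for each gene) of the 8 genes in 6 lineages. Points are single mice, blue for WT and orange for Tubb3-/-, and short lines are means of 2 mice. Irf1 reaches 430 CPM in endothelial cells and lies lower in both Tubb3-/- mice in every lineage but the immune lineage, and Irf4 and Irf5 stay below 10 CPM outside immune cells.

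Irf1 was highest in endothelial cells, at 390, 430, 223 and 269 CPM. Smooth muscle cells had 267, 172, 124 and 95.6 CPM, and fibroblasts had 241, 184, 103 and 92.1 CPM. The other lineages were lower on average, with 191, 112, 65.2 and 62.5 CPM in pericytes, 73.0, 64.6, 72.4 and 68.4 CPM in immune cells and 74.3, 75.0, 52.7 and 48.9 CPM in epithelial cells. Endothelial cells exceeded smooth muscle cells, the next in order, by 1.05 ± 0.18 (log2 fold change ± SE, edgeR quasi-likelihood test with Benjamini-Hochberg adjustment, adjusted p = 2.91e-05). No other neighbours in the order of smooth muscle, fibroblast, pericyte, immune and epithelial cells passed the test.

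Irf1 did not set the mural lineages apart. The mean of pericytes and smooth muscle cells was 229, 142, 94.7 and 79.1 CPM, and the mean of the other 4 lineages was 194, 188, 113 and 120 CPM. The mural mean was above the others in WT mouse 1 and below them in the other 3 mice. The fitted difference was 0.06 ± 0.14 (log2, SE, edgeR adjusted p = 0.736), in a comparison that called 49.7% of 16528 genes. It turned negative without WT mouse 1 (-0.17, adjusted p = 0.317) and in the whole-cell pool alone, which held 26 pericytes (-0.93, edgeR adjusted p = 0.00954). Against the other 5 lineages, smooth muscle cells were higher by 0.42 ± 0.14 (adjusted p = 0.0146), and pericytes stood at -0.32 ± 0.21 (adjusted p = 0.292).

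Irf2 was likewise highest in endothelial cells, at 232, 195, 222 and 223 CPM, followed by immune cells at 159, 152, 161 and 165 CPM. Fibroblasts had 107 to 119 CPM, epithelial cells 83.0 to 119 CPM, smooth muscle cells 61.8 to 79.9 CPM and pericytes 57.7 to 83.9 CPM. The steps from endothelial to immune, from immune to fibroblast and from epithelial to smooth muscle cells passed the test, and the others did not. The mural mean of Irf2 was 0.495, 0.501, 0.449 and 0.494 of the mean of the other lineages, a log2 fold change of -0.97 ± 0.07 (SE, edgeR adjusted p = 3.16e-10).

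Irf9 had 60.0, 69.3, 49.2 and 62.1 CPM in endothelial cells. Immune cells followed with 30.4 to 33.2 CPM and fibroblasts with 22.6 to 27.1 CPM, and each step down to epithelial cells was called. Epithelial cells (13.7 to 22.0 CPM), pericytes (7.46 to 23.8 CPM) and smooth muscle cells (13.6 to 17.1 CPM) were not told apart by the test. Irf9 was lower in the mural lineages by a log2 fold change of -0.92 ± 0.13 (SE, edgeR adjusted p = 4.99e-06). Over the 24 sums, which share mice and pools, the Pearson correlation of Irf2 and Irf9 on the log2 (CPM + 1) scale was 0.83.

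Irf3, which acts through activation of existing protein, ranged only from 22.6 to 38.3 CPM over all 24 sums. No neighbouring lineages differed, and the mural difference was 0.01 ± 0.08 (log2, SE, edgeR adjusted p = 0.946). Immune cells were nevertheless lower than the mean of the other lineages, by -0.27 ± 0.07 (edgeR adjusted p = 8.19e-04). Irf7, which interferon itself induces, was highest in immune cells, at 40.1, 46.3, 28.9 and 45.7 CPM. Endothelial cells had 19.8, 28.2, 13.6 and 21.6 CPM and smooth muscle cells, the lowest, had 7.76, 7.98, 5.09 and 6.22 CPM. Only the step from immune to endothelial cells was called, and the mural difference was -1.17 ± 0.21 (log2, SE, edgeR adjusted p = 5.67e-05).

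Irf4 and Irf5 were largely restricted to immune cells. Irf4 had 55.7, 27.3, 44.3 and 38.8 CPM there and at most 2.85 CPM in any other sum. Irf5 had 103, 71.8, 89.1 and 84.7 CPM there and at most 9.33 CPM elsewhere. Outside the immune lineage the mean level was 0.861% to 4.84% of the immune level for Irf4 and 2.25% to 5.95% for Irf5. Summed levels of 4 immune markers (Laptm5, Coro1a, Cd52 and Cd53, none of them at 0 in any lineage) were 0.210% to 1.61% of the immune level in the same lineages, and the part of RNA from immune cells in these low values was not tested.

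Irf8 was also highest in immune cells, at 248, 217, 229 and 191 CPM, but it was well above the immune markers in fibroblasts and pericytes. Fibroblasts had 48.0, 43.8, 44.4 and 52.9 CPM, which is 21.4% of the immune level, where the 4 immune markers stood at 0.444%. Pericytes had 24.7, 46.6, 27.6 and 77.4 CPM from 70 UMIs in all, 19.9% of the immune level, where the markers stood at 0.362%. An Irf8 UMI was present in 45.2% of fibroblasts and in 5.84% of epithelial cells, lineages with a median of 18266 and 17445.5 UMIs per cell. With each cell thinned to 2000 UMIs, which left out 27 fibroblasts and 3 epithelial cells, the shares were 8.60% and 0.864%.

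Irf8 fell in several steps from lineage to lineage. After immune cells came fibroblasts and pericytes, not told apart, then endothelial cells (8.27 to 20.1 CPM), smooth muscle cells (7.24 to 11.7 CPM) and epithelial cells (2.60 to 4.76 CPM), and every step other than that from fibroblasts to pericytes was called. The mural lineages differed from each other, pericytes above smooth muscle cells by a log2 fold change of 2.18 ± 0.32 (SE, edgeR adjusted p = 1.39e-05). Together they stood at -0.40 ± 0.17 against the other lineages (adjusted p = 0.0644), which passed the threshold without Tubb3-/- mouse 2 (-0.57, edgeR adjusted p = 0.0291).

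Counted over the family, 31 of 48 pairs of a gene and a lineage differed from the mean of the other 5 lineages. In immune cells 6 genes were higher and 2 (Irf1 and Irf3) lower, where 38.8% of all genes were called higher and 33.8% lower. In endothelial cells 4 were higher (Irf1, Irf2, Irf3 and Irf9) and 2 lower (Irf5 and Irf8), beside 29.1% and 27.8%. Smooth muscle cells had 2 higher (Irf1 and Irf3) and 6 lower, beside 31.7% and 22.7%. Pericytes had 1 higher (Irf8) and 2 lower (Irf2 and Irf9), beside 10.4% and 16.1%. Epithelial cells had 0 higher and 4 lower (Irf1, Irf2, Irf8 and Irf9), beside 30.5% and 28.3%, and fibroblasts 1 higher (Irf8) and 1 lower (Irf5), beside 33.1% and 19.3%. For the mural lineages together 5 of 8 were lower and 0 higher, where 30.1% of genes were called lower and 19.6% higher.

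Between genotypes, Irf1 was the member apart in the most lineages. Both Tubb3-/- mice lay below both WT mice in 5 of 6 lineages, and the genotypes overlapped in immune cells. The log2 fold changes (Tubb3-/- minus WT, SE) were -1.22 ± 0.36 in pericytes, -1.12 ± 0.15 in fibroblasts, -1.01 ± 0.20 in smooth muscle cells, -0.75 ± 0.12 in endothelial cells and -0.55 ± 0.14 in epithelial cells, and 0.05 ± 0.10 in immune cells. These are 2.32-fold, 2.18-fold, 2.01-fold, 1.69-fold and 1.46-fold lower levels in the first 5. None passed the edgeR test adjusted over all genes, with adjusted p = 0.790 in pericytes, 0.0930 in fibroblasts, 0.0690 in smooth muscle, 0.0636 in endothelial, 0.762 in epithelial and 0.912 in immune cells. With 2 mice per genotype, groups do not overlap for many genes, and 18.7% of genes in pericytes, 27.7% in fibroblasts, 20.3% in smooth muscle, 21.9% in endothelial and 18.5% in epithelial cells were lower in both Tubb3-/- mice. The 5 lineages come from the same 4 mice and are not separate observations.

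**Figure D2:**
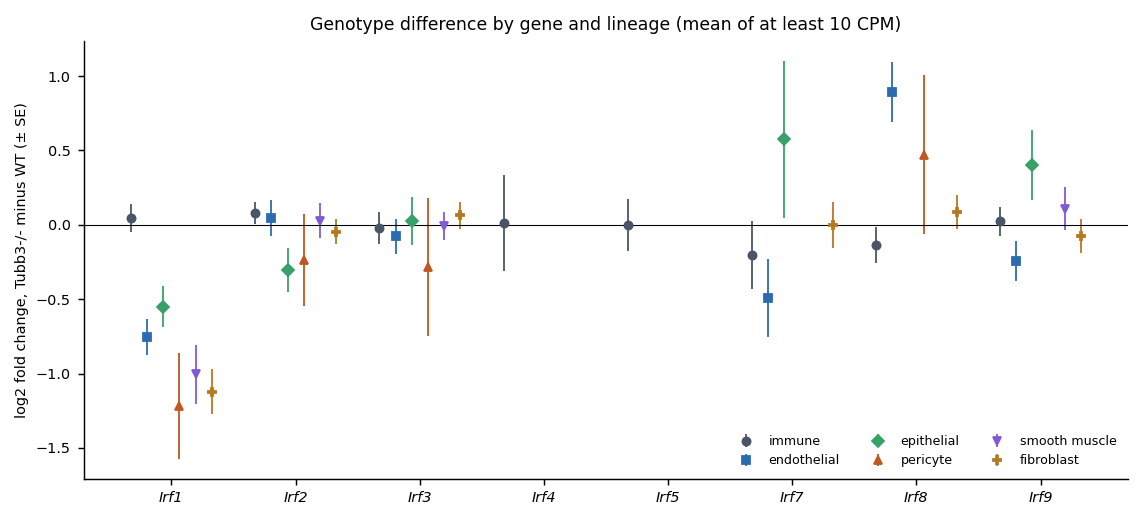
Log2 fold change between genotypes (y axis, Tubb3-/- minus WT) for the 8 genes in the lineages where the gene was tested and averaged 10 CPM or more. Symbols mark lineages and bars are SE, from 2 mice per genotype. Irf1 lies between -0.55 and -1.22 in 5 lineages and at 0.05 in immune cells, and Irf8 lies at 0.89 in endothelial cells.

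By edgeR, 0 members were called in each lineage, where it called 0% of genes in immune, 0.229% in endothelial, 0% in epithelial, 0% in pericyte, 0.964% in smooth muscle and 0% in fibroblast cells. At an unadjusted p under 0.05 there were 9 of 41 tested pairs of a member and a lineage, namely Irf1 in the 5 lineages above, Irf8 in endothelial and smooth muscle cells, Irf7 in smooth muscle cells and Irf4 in fibroblasts. The share of all genes at this level was 8.58% in immune, 15% in endothelial, 6.28% in epithelial, 5.94% in pericyte, 13.9% in smooth muscle and 19.6% in fibroblast cells. DESeq2 called Irf1 in endothelial cells (adjusted p = 7.46e-05) and fibroblasts (adjusted p = 4.07e-07) and no other member. It called 1.66% of genes in endothelial cells, 4.71% in fibroblasts, 1.78% in smooth muscle, 0.595% in immune, 0.149% in epithelial cells and 0.0182% in pericytes.

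The edgeR calls for Irf1 changed with the mice used. It was called in endothelial cells without Tubb3-/- mouse 2 (-0.89, edgeR adjusted p = 0.0112), and in fibroblasts without WT mouse 1 (-0.91, adjusted p = 0.00640) or WT mouse 2 (-1.27, adjusted p = 0.00555). In smooth muscle cells it was called without WT mouse 1 (-0.67, edgeR adjusted p = 0.0384), WT mouse 2 (-1.27, adjusted p = 0.00192) or Tubb3-/- mouse 1 (-1.19, adjusted p = 0.0112). In such a fit the 1 mouse left in a genotype is assumed to vary like the pair in the other. The direction was the same in each of these fits.

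The Irf1 difference was seen in both pools in endothelial, epithelial, smooth muscle and fibroblast cells. In fibroblasts the whole-cell pool had 207, 161, 96.7 and 87.6 CPM and the enriched pool 215, 165, 91.1 and 80.9 CPM. In smooth muscle cells these were 220, 168, 85.4 and 79.7 CPM and 246, 162, 117 and 89.5 CPM. In endothelial cells they were 461, 495, 256 and 318 CPM and 386, 409, 198 and 211 CPM. Epithelial cells had 71.0, 74.1, 62.8 and 58.3 CPM in the whole-cell pool and 85.1, 81.4, 47.3 and 47.9 CPM in the enriched pool, from 44 to 96 cells per mouse and pool. In each of these 4 lineages and in either pool both Tubb3-/- mice were below both WT mice. Immune cells overlapped in the whole-cell pool, at 61.0, 52.3, 60.9 and 57.4 CPM, and did not in the enriched pool, at 88.9, 86.2, 67.8 and 68.8 CPM from 29 to 67 cells per mouse. Depth per cell differed between genotypes, and after thinning to 2000 UMIs Irf1 was found in 30.3%, 23.7%, 15.2% and 13.3% of fibroblasts and in 43.8%, 48.1%, 31.9% and 35.6% of endothelial cells. Smooth muscle cells (31.7%, 23.6%, 17.9% and 15.3%) and pericytes (23.5%, 21.3%, 10.5% and 9.38%) did not overlap either. In epithelial cells the thinned shares were 8.76%, 10.3%, 8.86% and 10.9%, so that the genotypes overlapped there by this measure.

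**Figure D3:**
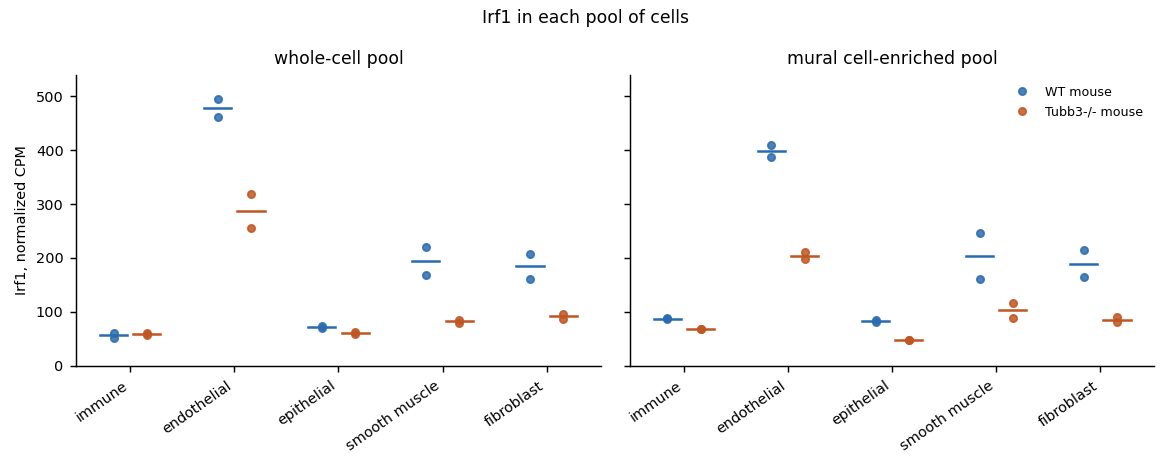
Irf1 in normalized CPM (y axis, linear) in the whole-cell pool (left) and the mural cell-enriched pool (right), for 5 lineages. Pericytes are not shown, with 26 cells in the whole-cell pool. Points are single mice and short lines are means of 2 mice. In endothelial, epithelial, smooth muscle and fibroblast cells both Tubb3-/- mice lie below both WT mice in either panel.

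Other measures moved with Irf1. A list of 15 dissociation and immediate-early genes, such as Fos, Egr1 and Jun, which rise when cells are handled or stimulated, summed to 24332, 21330, 16480 and 16093 CPM in fibroblasts, 26844, 22860, 21256 and 18207 CPM in smooth muscle cells and 14922, 12750, 11378 and 9001 CPM in pericytes. In endothelial cells the sums were 13173, 14682, 12856 and 11702 CPM and in epithelial cells 8705, 10552, 7292 and 7467 CPM, again lower in both Tubb3-/- mice. In immune cells, where Irf1 overlapped, they were 8685, 8789, 9254 and 9144 CPM, higher in both. The median log2 fold change of the list was -0.47 in fibroblasts, -0.43 in pericytes, -0.35 in smooth muscle, -0.29 in epithelial, -0.21 in endothelial and 0.11 in immune cells, and edgeR called 0 of its genes in any lineage. The part of these genes in the Irf1 difference was not tested.

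Mesothelial markers (Msln, Upk3b, Wt1 and Lrrn4, none at 0) were lower in both Tubb3-/- mice in 3 of the 5 lineages. They summed to 211, 216, 80.7 and 122 CPM in endothelial cells, 169, 132, 88.1 and 82.9 CPM in smooth muscle cells and 132, 165, 107 and 91.6 CPM in fibroblasts. The genotypes overlapped in pericytes, at 27.8, 317, 253 and 226 CPM, and in epithelial cells, at 108, 208, 349 and 128 CPM. With cells that carried both Msln and Upk3b left out, Irf1 differed by -0.77, -0.998 and -1.15 in these lineages (log2), about as with them. In epithelial cells, 5.33% of which carried both, the difference was -0.39 without them.

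Markers of other cell types were compared between genotypes in the same lineages. Over the 5 lineages with lower Irf1 and the 6 marker lists of other cell types, mesothelial ones included, the summed level was higher in both Tubb3-/- mice in 7 of 30 pairs and lower in both in 9. Of all genes tested, 17.7% (pericytes) to 26% (fibroblasts) were higher in both and 18.5% (epithelial cells) to 27.7% (fibroblasts) lower in both. Pericyte markers were higher in smooth muscle cells and fibroblasts, and smooth muscle markers in pericytes, fibroblasts and epithelial cells. Fibroblast markers were higher in smooth muscle cells and immune markers in fibroblasts. In endothelial cells epithelial, pericyte, smooth muscle and mesothelial markers were lower, and immune and fibroblast markers overlapped. Fibroblast markers in smooth muscle cells were 2852, 2741, 4617 and 4761 CPM, and smooth muscle markers (Acta2, Cnn1, Tagln and Des) in fibroblasts were 876, 845, 1843 and 1303 CPM, higher in both Tubb3-/- mice. Smooth muscle markers in endothelial cells were 451, 397, 319 and 295 CPM, lower in both. No list was at 0, and the part of these markers in the Irf1 difference was not tested.

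An interaction term asked whether the Irf1 difference was larger in mural cells. The genotype effect in the mural lineages minus that in the other 4 was -0.50 ± 0.19 (log2, SE, edgeR adjusted p = 0.833). For the mean of the 5 other lineages against immune cells, a comparison added after the values were seen, it was -0.96 ± 0.20 (edgeR adjusted p = 0.184). In edgeR 0 of 16528 genes (0%) were called in either comparison, with 943 (5.71%) and 1141 genes at an unadjusted p under 0.05, and DESeq2 called 0 members in the first and was not run on the second.

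Irf8 was higher in both Tubb3-/- mice in endothelial cells, at 8.27, 11.8, 20.1 and 18.7 CPM, a log2 fold change of 0.89 ± 0.20 (SE, edgeR adjusted p = 0.134). Groups did not overlap, with Tubb3-/- higher, for 24.9% of genes in this lineage. The immune markers in these cells overlapped, at 57.3, 47.9, 60.1 and 55.6 CPM. Irf8 in smooth muscle cells was 8.39, 7.24, 11.5 and 11.7 CPM, also higher in both Tubb3-/- mice, as were 22.9% of genes. In fibroblasts and pericytes, where it was higher than in these lineages, the genotypes overlapped.

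Of the other members, Irf4 in fibroblasts was 2.61, 2.85, 1.29 and 1.31 CPM, lower in both Tubb3-/- mice at a low level. Its log2 fold change was -1.07 ± 0.21 (SE, edgeR adjusted p = 0.128), given here after its values were seen. The immune markers in fibroblasts were 13.7, 14.4, 18.2 and 14.7 CPM, higher in both. Irf2 in epithelial cells was 101, 119, 83.0 and 95.1 CPM (-0.30 ± 0.15, edgeR adjusted p = 0.774), and Irf9 there was 17.2, 13.7, 18.9 and 22.0 CPM (0.40 ± 0.23, adjusted p = 0.807), with 18.9% of genes in this lineage higher in both Tubb3-/- mice. Irf2 in immune cells was higher in both Tubb3-/- mice by a small margin (0.08 ± 0.08, edgeR adjusted p = 0.787), as were 19.5% of genes. Irf5 was lower in both Tubb3-/- mice in endothelial, epithelial and fibroblast cells, at levels of 2.50 to 6.22 CPM, and Irf7 was lower in both in smooth muscle cells. Irf9 in pericytes was 18.5, 7.46, 20.1 and 23.8 CPM and did not pass the filter for testing, and 17.7% of genes tested in pericytes were higher in both Tubb3-/- mice. Irf3 overlapped between genotypes in each of the 6 lineages.

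The pools were compared within a lineage, with mouse as a block, after the data had been seen. Irf1 differed little in fibroblasts (-0.03 ± 0.04, enriched minus whole-cell, log2, SE) and smooth muscle cells (0.19 ± 0.09), and neither passed the edgeR test (adjusted p = 0.820 and 0.570), which called 4.41% and 1.41% of genes. In endothelial cells Irf1 was lower in the enriched pool, by -0.38 ± 0.07 (edgeR adjusted p = 0.00756, where 14.9% of genes were called), and was not called without Tubb3-/- mouse 2 (adjusted p = 0.0521). Of the 15 dissociation and immediate-early genes, 9 were lower there and 0 higher, and their part was not tested. In immune cells of the enriched pool, 200 in all, Irf4 was lower by -1.32 ± 0.24 (edgeR adjusted p = 0.00213) and Irf8 by -0.79 ± 0.15 (adjusted p = 0.00240), beside 19.3% of genes called. Irf1 was higher in them by 0.42 ± 0.16 and was not called (edgeR adjusted p = 0.0842). These immune cells differed in make-up, as 128 of the 200 (64.0%) met the C1qa gate alone, a macrophage gene, against 232 of 4955 (4.68%) in the whole-cell pool. Of the dissociation and immediate-early genes 14 were higher in them and 0 lower, with sums of 12974 to 14736 CPM against 7028 to 7568 CPM. The part of either in these differences was not tested. Irf8 in fibroblasts was lower by -0.25 ± 0.05 (edgeR adjusted p = 0.0192), and was not called without Tubb3-/- mouse 1 (adjusted p = 0.0878) or Tubb3-/- mouse 2 (adjusted p = 0.116).

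The immune lineage is a mixture, and the members separated its cells. Immune cells were grouped by a further gene, Cd79a (a B cell gene), Cd3e (T cells), Ncr1 (natural killer cells), Xcr1 and Cd209a (type 1 and type 2 conventional dendritic cells), Ly6c2 (classical monocytes), C1qa (macrophages), Ear1 (alveolar macrophages) or Csf3r (neutrophils). These 9 gates held 97 to 939 cells, 648 cells met several gates and 1241 met none. Some sums of 1 mouse were thin, with 10 Cd209a+ cells in WT mouse 2 (129068 UMIs). Tubb3-/- mouse 2 had 14 Ncr1+ cells (97558 UMIs). Against the mean of the other gates, 44 of 72 pairs of a member and a gate were called, where the share of genes called was 56.4% for Cd79a, 53% for Cd3e, 31.9% for Ncr1, 45.1% for Xcr1, 37.7% for Cd209a, 25.2% for Ly6c2, 47.4% for C1qa, 60.2% for Ear1 and 54.9% for Csf3r.

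**Figure D4:**
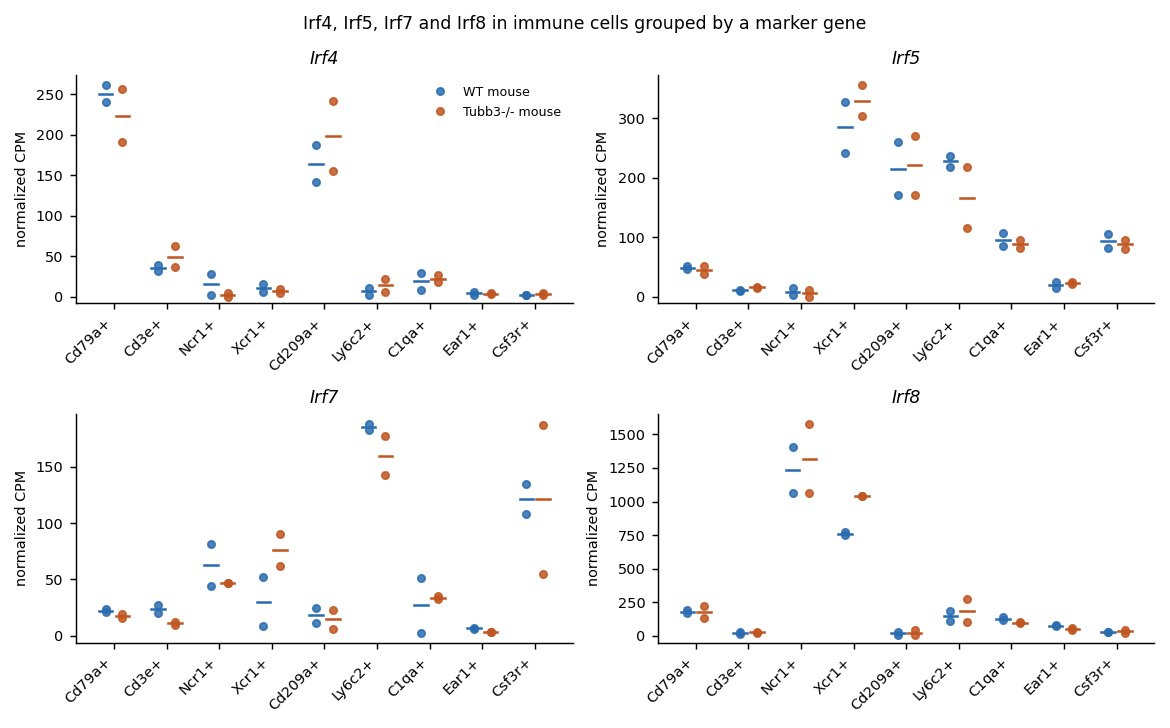
Normalized CPM (y axis, linear, a separate scale for each gene) of Irf4, Irf5, Irf7 and Irf8 in immune cells grouped by the gene on the x axis. Points are single mice, blue for WT and orange for Tubb3-/-, and short lines are means of 2 mice. Irf4 peaks in Cd79a+ and Cd209a+ cells, Irf5 in Xcr1+ cells, Irf7 in Ly6c2+ cells and Irf8 in Ncr1+ and Xcr1+ cells.

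Irf8 was highest in Ncr1+ cells, at 1065, 1408, 1066 and 1574 CPM, and in Xcr1+ cells, at 771, 749, 1043 and 1044 CPM. Every one of these values was above those of all other gates, where the highest was 276 CPM, in Ly6c2+ cells. Cd209a+ cells had 27.6, 8.36, 42.1 and 6.47 CPM. The log2 fold changes against the other gates were 3.90 ± 0.14 in Ncr1+, 3.32 ± 0.14 in Xcr1+ and -2.52 ± 0.30 in Cd209a+ cells (SE, each called by edgeR). The gates of type 1 and type 2 dendritic cells thus differed widely in Irf8, a factor that type 1 cells need.

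Irf4 had the opposite order in the dendritic gates. Cd209a+ cells had 187, 142, 156 and 243 CPM and Xcr1+ cells 5.99, 15.4, 8.86 and 4.45 CPM, with log2 fold changes of 3.66 ± 0.23 and -1.35 ± 0.40 against the other gates (SE, both called by edgeR). Cd79a+ cells were highest, at 262, 241, 257 and 191 CPM (4.10 ± 0.19). Cd3e+ cells had 32.2 to 63.0 CPM (1.32 ± 0.23), and Csf3r+ cells had 1.67 to 4.05 CPM (-3.23 ± 0.59), the lowest mean of the 9 gates.

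Irf5 was high in the dendritic and monocyte gates. Xcr1+ cells had 327, 242, 355 and 303 CPM, and Cd209a+ and Ly6c2+ cells had means of 218 and 197 CPM. Lymphoid gates were low, with 9.91 to 16.6 CPM in Cd3e+ and at most 13.8 CPM in Ncr1+ cells. The log2 fold changes against the other gates were 2.63 ± 0.13 in Xcr1+, -2.49 ± 0.21 in Cd3e+ and -3.28 ± 0.37 in Ncr1+ cells (SE, each called by edgeR).

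Irf7 and Irf9 were high in the same gates. Irf7 had 183, 188, 143 and 177 CPM in Ly6c2+ cells and 108, 135, 54.7 and 187 CPM in Csf3r+ cells, against 3.75 to 7.17 CPM in Ear1+ cells. Its log2 fold changes were 2.63 ± 0.29, 2.02 ± 0.29 and -2.92 ± 0.38 in these gates, and those of Irf9 were 0.95 ± 0.22, 1.12 ± 0.19 and -1.30 ± 0.19 (SE, each called by edgeR). Ear1+ cells were lower for 7 of 8 members, with Irf3 at -0.33 ± 0.15 (adjusted p = 0.0551), where 30.9% of genes were called lower. Irf1 had 18.2 to 26.4 CPM in Ear1+ cells and was highest in Ncr1+ cells at 102, 109, 140 and 133 CPM (1.26 ± 0.18). Irf2 was highest in Cd79a+ cells at 289, 223, 312 and 210 CPM (0.90 ± 0.12).

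Other genes of the interferon route were compared in the same way, the mean of pericytes and smooth muscle cells against the other 4 lineages. Over all genes the median log2 fold change of this comparison was -0.18, and edgeR called 30.1% of genes lower and 19.6% higher. Interferon receptors were lower for 5 of 6 genes (median -0.85), among them Ifngr1, a chain of the interferon-γ receptor (-0.92), and Ifnar1 of the type I receptor (-0.77). Of the JAK-STAT genes 5 of 6 were lower (median -0.46), such as Tyk2 (-0.78) and Jak2 (-0.61). Sensors and kinases upstream of IRF3 and IRF7 were lower for 10 of 15 genes (median -0.63), with Tmem173 (STING) at -1.48 and the RNA sensor Ifih1 at -1.20. Partners of IRF4 and IRF8 were lower for 5 of 8 (median -1.23), among them, at means of 10 CPM or more, the lymphoid factor Ikzf1 (-3.97) and Spi1 (PU.1, -3.00). Of these 4 lists, 0 genes were higher.

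Pericytes and smooth muscle cells differed in these counts. Each lineage was set against the mean of the other 5, where edgeR called 22.7% of genes lower and 31.7% higher in smooth muscle cells and 16.1% lower and 10.4% higher in pericytes. In smooth muscle cells 5 of 6 receptors, 5 of 6 JAK-STAT genes, 7 of 15 sensors and kinases and 5 of 8 partners were lower. In pericytes these were 2 of 6, 1 of 6, 2 of 15 and 0 of 8. The medians of the 4 lists, in the same order, were -0.69, -0.61, -0.57 and -1.69 in smooth muscle cells, beside 0.02 over all genes. In pericytes they were -0.50, -0.14, -0.64 and -0.40, beside -0.29. The median of sensors and kinases was thus no higher in pericytes, although fewer of them were called. The partner Ets1 was higher in pericytes (1.21) and lower in smooth muscle cells (-1.58). Low levels were not particular to mural cells. In epithelial cells 3 of 6 receptors, 6 of 6 JAK-STAT genes, 6 of 15 sensors and kinases and 3 of 8 partners were lower. There 2 receptors were higher, and 28.3% of all genes were lower. In fibroblasts these were 0 of 6, 0 of 6, 5 of 15 and 4 of 8 lower, beside 19.3%, and 2, 3, 3 and 2 higher, beside 33.1%. Pericytes had the fewest cells, and whether the lists differed between the mural lineages was not tested.

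Of the target genes, those of ISGF3 and IRF7 were lower in the mean of the mural lineages for 9 of 13 genes and higher for 0. Of all genes, 30.1% were called lower and 19.6% higher in this comparison. The median of the list was -1.16, and Ifi27l2a (-1.34), Rtp4 (-1.22) and Bst2 (-1.16) were among the lower genes. In smooth muscle cells alone 9 of 13 were lower and 0 higher (median -1.11, beside 0.02 over all genes). In pericytes alone 3 were lower and 1 higher, and the median was above that of all genes (0.16 beside -0.29). Ifi27l2a and Bst2 were lower in both lineages. Xaf1 was higher in pericytes (0.64) and lower in smooth muscle cells (-1.09), and Rtp4 was lower in smooth muscle cells (-2.34) and not called in pericytes (0.39, edgeR adjusted p = 0.414). Targets of IRF1 and interferon-γ were lower in the mean of the mural lineages for 12 of 20 genes (median -1.05), with Nlrc5, the activator of class I antigen presentation genes, at -2.50, Cd274 (PD-L1) at -2.40 and the adhesion molecule Icam1 at -2.03. The 1 higher gene was Cxcl10 (0.76), a chemokine that draws activated T cells, which was not called in smooth muscle cells (0.39, edgeR adjusted p = 0.147) or pericytes (0.83, adjusted p = 0.0665) alone. In smooth muscle cells 13 of the 20 targets were lower and 2 higher (median -1.80), and in pericytes 5 were lower and 3 higher (median -0.43). Epithelial cells had 12 of the 20 lower and 3 higher (median -0.87), and fibroblasts 7 lower and 6 higher (median -0.17). Inhibitors of the route were lower for 5 and higher for 2 of 9 genes, the 2 being Socs3 (0.62) and Irf2bpl (0.38). Of the dissociation and immediate-early genes 11 of 15 were higher and 2 lower (median 0.40), with 13 higher and 0 lower in smooth muscle cells and 1 higher and 6 lower in pericytes.

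Endothelial cells, where Irf1, Irf2 and Irf9 were highest, had higher levels of 18 of 20 targets of IRF1 and interferon-γ (median 1.23), where 29.1% of all genes were called higher and 27.8% lower (median -0.0023). The guanylate-binding protein genes Gbp4 (5.15) and Gbp7 (2.21) and Nlrc5 (2.62) rose most at means of 10 CPM or more, and Cxcl10 was the 1 lower gene (-0.96). Of the targets of ISGF3 and IRF7, 10 of 13 were higher (median 1.57) and 1, Ifi27l2a, lower (-0.91), with Rtp4 at 2.17 and Bst2 at 1.88. The ISGF3 subunit Stat2 (1.45) and the sensor Tlr3 (1.93) were higher too. Over their lists, 3 of 6 JAK-STAT genes were higher and 1 lower, and 7 of 15 sensors and kinases higher and 2 lower. In immune cells 15 of 20 targets of IRF1 and interferon-γ were higher and 4 lower (median 1.34), where 38.8% of all genes were called higher and 33.8% lower (median 0.03). Of the targets of ISGF3 and IRF7 in immune cells, 6 of 13 were higher and 4 lower (median 0.05), near the shares over all genes. Partners of IRF4 and IRF8 were higher in immune cells for 7 of 8 genes, with Spi1 and Ikzf1 at 7.52 and Batf at 3.94. Of 8 interferon ligand genes 1 passed the filter, Ifng, named here after its values were seen, with 566 UMIs in immune cells and at most 6 in any other lineage.

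Between genotypes the medians of the target lists took different signs in different lineages. The median log2 fold change of the targets of IRF1 and interferon-γ was -0.07 in fibroblasts, -0.12 in smooth muscle cells and -0.10 in endothelial cells, beside -0.01, 0.01 and -0.01 over all genes, and it was 0.24 in epithelial cells, 0.21 in pericytes and 0.09 in immune cells. That of the targets of ISGF3 and IRF7 was -0.25 in endothelial cells, -0.18 in pericytes, -0.10 in immune cells, 0.01 in smooth muscle cells, 0.09 in fibroblasts and 0.23 in epithelial cells. By edgeR 0 genes of the lists were called in any lineage. At an unadjusted p under 0.05 there were 31 of 91 in fibroblasts, 13 of them dissociation and immediate-early genes, where 19.6% of all genes reached this level. Smooth muscle cells had 20 of 82, 9 of them from that list, beside 13.9%, and endothelial cells 16 of 89, 5 of them from that list, beside 15%. Epithelial cells had 15 of 79, 7 of them from that list, beside 6.28%. Immune cells had 9 of 94, 2 of them from that list, beside 8.58%, and pericytes 2 of 53, 1 of them from that list, beside 5.94%. DESeq2 called 14 genes of the lists in fibroblasts, 8 of them dissociation and immediate-early genes, 7 in smooth muscle cells, 5 of them from that list, 2 in endothelial cells, 1 in epithelial cells and 0 in immune cells and pericytes. The 2 in endothelial cells were Cxcl9 and Icam1, and Icam1 was also among those of fibroblasts and smooth muscle cells, beside immediate-early genes such as Atf3, Jun, Fosb and Egr1, which were lower in Tubb3-/- mice. Of the 14 called by DESeq2 in fibroblasts 13 were lower and 1 higher, Batf3 (edgeR log2 fold change 1.20 ± 0.28, SE, edgeR adjusted p = 0.150), a partner of IRF4 and IRF8. These genes were named after their values were seen.

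Cxcl10, the 1 target higher in the mean of the mural lineages, had its highest mean in fibroblasts, with 278, 115, 164 and 135 CPM. Pericytes had 281, 24.3, 55.2 and 179 CPM and smooth muscle cells 144, 76.7, 76.6 and 73.6 CPM. The pericyte values overlapped between genotypes, with a log2 fold change of -0.33 ± 0.92 (SE, edgeR adjusted p = 0.976). In smooth muscle cells it was -0.57 ± 0.24 (adjusted p = 0.342). Endothelial cells, where Irf1 was highest, had 96.9, 30.7, 23.6 and 35.4 CPM of Cxcl10.

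Genes with the profile most like that of a member over the 24 sums were sought among 9898 genes that averaged 10 CPM or more, on the log2 (CPM + 1) scale. Among the genes closest to Irf1 were Ppp1r15a (Pearson r = 0.90), Camta1, Midn and Nfat5 (0.89). Irf2 was closest to Hpcal1 (0.96), Rnf125, Fcho2, Ankrd33b and H2-T23 (0.93), and Irf9 to Nras (0.94), Pml, Bst2, S1pr1 and Aph1a (0.92). The immune members had close neighbours, Cxcl2 (0.97), Camk4, C1qa, Lpxn and Ms4a4c (0.96) for Irf4, Snx1 (0.96), Vps26a, Trem2, Myo1g and Il18 (0.95) for Irf5 and Lipa (0.96), Slc9a9, Slc8b1, Dock10 and Apobec1 (0.92) for Irf8. Irf3 (Lrrcc1 at 0.86, Npr1, Fzd6, Polg and Smim26 at 0.80) and Irf7 (P2rx4 at 0.85, Lactb, Sft2d1, Rab10os and Ralgds at 0.84) had none as close. The sums share mice and pools, so these values are descriptions.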

How the data were processed

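Lungs of 4 bleomycin-treated mice were profiled with 10x 3′ chemistry in 2 pools of tagged cells. Per the labels and methods, the authors aligned reads to mm10 with Cell Ranger 7.1.0 and assigned cells to mice by tag, and the deposited matrices hold UMI counts per gene and cell. The mouse of each matrix was taken from its name, matched to the mouse names in the extract protocol. Tag rows were left out of library sizes and tests (26.2% to 36.4% of UMIs).

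Of 32121 cells, 30860 had 200 to 7500 genes and at most 15% mitochondrial UMIs. Scrublet in scanpy 1.11.5 marked 139 whole-cell (0.982%) and 638 enriched (3.82%) doublets, and 30083 cells were kept. Raw counts were summed per mouse and lineage. The pericyte sums held 255452 to 439072 UMIs and the fibroblast sums 28886417 to 50411037. Tests used edgeR 4.0.16 (filterByExpr, TMM, quasi-likelihood, Benjamini-Hochberg over all genes tested) in R 4.3.3, with mouse as a block between lineages and 2 mice against 2 between genotypes. DESeq2 1.42.0, other size factors, filters, gates and single pools were alternatives. The scripts were tested on simulated counts. P-values between genotypes within a lineage measure the spread between 2 mice per genotype. Tests between lineages, gates or pools, and the interactions, had mouse as a block. Their p-values measure how far differences within a mouse vary from mouse to mouse. A 10th immune gate, Siglech, had no cell that met it alone.

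The members and gene lists were chosen with earlier results of these data known. Named genes were all 8 members, the 5 genes most like each (1 is not reported here), and, from each list and comparison, called genes with the 3 largest rises and falls at a mean of at least 10 CPM, plus Cxcl10. Fold changes between genotypes were given for pairs of a member and a lineage with a mean of at least 10 CPM whose genotypes did not overlap, and besides for Irf1 in immune cells and Irf4 in fibroblasts, added after their values were seen.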

Additional observations from a re-analysis of the deposited data

Results flagged for a closer look

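Irf2 differed in sign between genotypes in 2 lineages. In immune cells both Tubb3-/- mice were above both WT mice (log2 fold change 0.081 ± 0.08, SE, edgeR adjusted p = 0.787), as were 19.5% of genes tested. In epithelial cells both were below (-0.30 ± 0.15, edgeR adjusted p = 0.774), as were 18.5% of genes tested. Neither passed the test, and the difference between these lineages was not tested.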

How the results depend on the processing

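Irf2, Irf7 and Irf9 stayed lower in the mural lineages, past the threshold, under every alternative run. The Irf1 mural difference of 0.06 ranged from -0.17 to 0.17 with 1 mouse left out, was -0.93 in the whole-cell pool alone and -0.0027 with cells carrying Higd1b and Myh11 counted as pericytes. Irf3 turned from 0.01 to -0.0211 with no filter on low counts, -0.54 in the whole-cell pool, -0.0674 with 2 UMIs of each gate gene and -0.0152 without mesothelial-marked cells, and ranged from -0.12 (without WT mouse 2) to 0.0728 with 1 mouse left out, with -0.0045 without Tubb3-/- mouse 2. The number of members called between genotypes, 0 by edgeR, was 2 with DESeq2, 5 with no filter, 1 with 2 UMIs of each gate gene and 1 to 2 with 1 mouse left out. With the replicate number as a block it was 3, Irf1 in endothelial cells (-0.76, edgeR adjusted p = 0.0206), smooth muscle cells (-0.99, adjusted p = 1.31e-04) and fibroblasts (-1.11, adjusted p = 0.0305). The numbers pair different animals, and same-numbered mice had correlations of deviations of 0.006 to 0.55 over lineages. In the whole-cell pool Irf4 (-4.05) and Irf5 (-1.33) were no longer called as lower in the mural lineages. Irf8, not called in that comparison over both pools, was called by DESeq2, with no filter, with 2 UMIs of each gate gene and with the Higd1b and Myh11 cells. The causes were not tested. Pericytes, with 170 cells, limit what the depth can show.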
